A study of Mus musculus with 8 samples.

Results

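The genes described here encode 10 enzymes that make serine and move its carbon through the folate and methionine cycles: Phgdh, Psat1 and Psph for serine synthesis, Shmt1 and Mthfd1 for the cytosolic folate cycle, Shmt2, Mthfd2, Mthfd1l and Aldh1l2 for the mitochondrial folate cycle, and Mat2a for the synthesis of S-adenosylmethionine (SAM). Each was found by its symbol on exactly 1 row of a table with 34369 distinct gene symbols, whose values are FPKM (fragment counts corrected for transcript length and library size). The RNA was that of mouse iPS cells (induced pluripotent stem cells), somatic cells reprogrammed to resemble embryonic stem cells. Mutator lines (5 libraries, called mutator replicates 1 to 5) were homozygous for the D257A substitution in Polg, whose product copies mitochondrial DNA. The substitution removes its proofreading, so that mitochondrial DNA collects mutations. The 3 wild-type libraries came from lines of littermate embryos. All lines had been grown with LIF on arrested feeder cells and passaged once on gelatin, without feeders, ahead of RNA extraction. Strain, sex and passage number are not stated, and no label says how many embryos gave rise to the lines.

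Cells make serine from the glycolytic intermediate 3-phosphoglycerate. Serine hydroxymethyltransferases pass its side-chain carbon to tetrahydrofolate, and the folate-bound carbon is then used for purines, for thymidylate and, through methionine, for SAM. The folate reactions run in parallel in the cytosol and in mitochondria, by separate enzymes, and formate made in mitochondria feeds the cytosolic side. SAM donates methyl groups to DNA, histones and RNA. In mouse embryonic stem cells, threonine breakdown is an additional source of glycine, folate-bound carbon and SAM. In cultured cells and mice with mitochondrial dysfunction, the serine and mitochondrial folate genes are known as targets of the stress-induced transcription factor ATF4.

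Mat2a RNA is known from human cells to carry hairpins in its 3′ untranslated region (UTR) that the methyltransferase METTL16 binds at a 9-base motif. The mouse Mat2a transcript of 2804 bases in GENCODE M21 (GRCm38) was searched for this motif, TACAGAGAA, because Mat2a was the 1 member that passed the test described below. It held 5 copies, all in the 3′ UTR of 1494 bases. They are shown with 10 bases on either side, 5′ to 3′ on the minus strand of chromosome 6, with the motif in capitals.
Site 1 (chr6:72434235-72434263): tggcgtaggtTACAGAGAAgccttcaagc
Site 2 (chr6:72433451-72433479): ccttgtgataTACAGAGAAgtcacagggc
Site 3 (chr6:72433272-72433300): ctggtgtagcTACAGAGAAaccagcttcc
Site 4 (chr6:72433157-72433185): atggcgtaagTACAGAGAAgccatcacct
Site 5 (chr6:72432938-72432966): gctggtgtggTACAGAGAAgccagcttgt
Of 21877 protein-coding genes searched on the transcript strand, 993 (4.54%) had at least 1 copy in a coding transcript. Mat2a was the 1 gene with 5 or more. Among transcripts within 20% of its length, 3.57% held a copy. A match describes the letters and does not show binding.

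Across all libraries, between 11198 and 11899 genes reached 1 FPKM. The difference between mutator replicates 1 and 2 was within fragment sampling noise: squared, it was 0.964 times the expected, against 3.46 to 10.4 times for 12 other within-group pairs. The column headers of replicates 1 and 2 also share a label. Both replicates were averaged and counted as 1 sample, so 4 mutator samples were compared with 3 wild-type samples. The design text calls the lines independent, and beyond that p-values measure only the spread between these samples. The column headers of the 3 wild-type lines share a number, and if they come from 1 embryo, embryo and genotype cannot be told apart. Polg measured 8.95 to 10.03 FPKM in wild-type and 7.41 to 12.0 FPKM in mutator libraries, which checks the labels only weakly because a point substitution need not alter the level of the transcript. The 10 markers of pluripotent cells were all expressed, with summed FPKM of 606 to 890 in wild-type and 439 to 714 in mutator libraries. Of these 10, 5 had log2 changes below 0 and 5 above, with a median of -0.08, and 0 passed in limma (2 at an unadjusted p below 0.05). Those 2, Pou5f1 and Dppa4, were lower in all 4 mutator samples than in any wild-type sample. Among all genes, 16.1% lay entirely below wild type and 30.3% had an unadjusted p below 0.05 (limma), so 2 of 10 is near the background. The log2 changes of Pou5f1 and Dppa4 were -0.85 and -0.86 (limma adjusted p = 0.0724 and 0.0522). Summed FPKM of 18 feeder fibroblast markers were 213 to 248 in wild-type and 262 to 568 in mutator libraries, highest in mutator replicates 1 to 3. None of the markers was at 0 in any library. Of 17 tested, Fn1 was called higher, against 2.95% of all genes. Of the 17, 2 lay entirely above wild type and 4 had an unadjusted p below 0.05 (limma), against 12.4% and 30.3% of all genes. Summed FPKM of 12 primitive endoderm markers were 23.3 to 26.6 in wild-type and 32.5 to 250.1 in mutator libraries. They were highest in mutator replicate 5, and Afp stayed at or below 0.03 FPKM. Of 7 tested, 0 passed. All 7 had log2 changes above 0 (median 1.26), as did all 17 feeder markers tested (median 0.68). Of the 7, 6 lay entirely above wild type, against 12.4% of all genes. At an unadjusted p below 0.05 (limma) there were 5 of the 7, against 30.3% of all genes. The Y-linked gene Eif2s3y was at 47.8 to 94.4 FPKM in wild-type and in mutator replicates 3 and 5 at 65.3 and 52.4 FPKM, but at 0.96 to 4.14 FPKM in mutator replicates 1, 2 and 4.

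Mat2a encodes the catalytic subunit of the SAM synthetase used outside the adult liver (ENSMUSG00000053907, chromosome 6, 72432799 to 72439558). Its transcript measured 79.2, 71.0 and 75.4 FPKM in the 3 wild-type libraries. It measured 20.7 and 20.6 FPKM in mutator replicates 1 and 2, and 53.7, 24.6 and 26.5 FPKM in replicates 3 to 5. All mutator libraries lay below all wild-type libraries, with replicate 3 between the other mutator lines and wild type. The means were 75.2 ± 4.13 FPKM (SD, n = 3) and 31.4 ± 15.1 FPKM (SD, n = 4), 2.40-fold lower in mutator samples. The test was run on log2(FPKM + 1) over the 11949 genes whose mean reached 1 FPKM. It gave Mat2a a log2 change of -1.33 (standard error 0.31; limma, Benjamini-Hochberg adjusted p = 0.0422; lower in 4 of 4 samples).

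**Figure D1:**
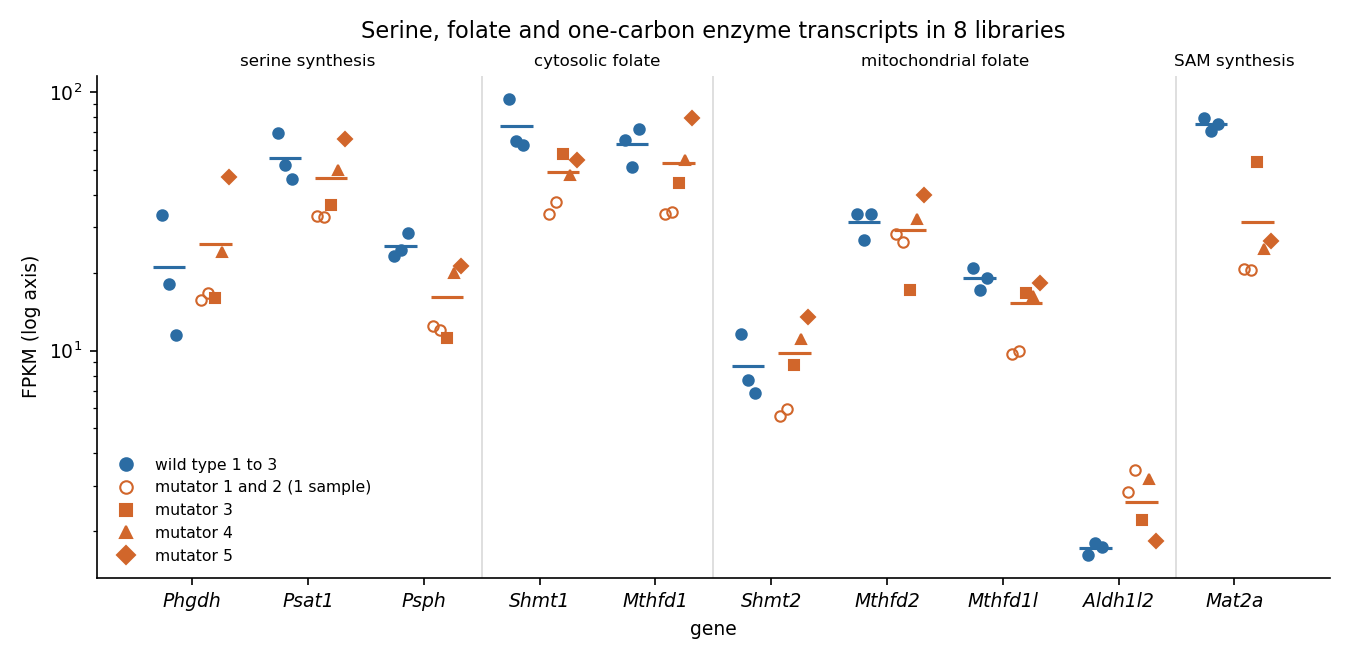
FPKM (log axis) of the 10 enzyme transcripts in each library, with wild-type libraries in blue, mutator libraries in orange and group means as bars (mutator replicates 1 and 2, open circles, count as 1 sample). Mat2a falls from 71.0 to 79.2 FPKM in wild type to 20.6 to 53.7 FPKM in mutator libraries, while 6 of the other 9 genes overlap between the groups.

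Of the 10 members, Mat2a was the 1 that fell, 0 rose and 9 did not pass. Over all genes tested, 7.49% were called, 4.54% lower and 2.95% higher, so 1 of 10 is near the background. At an unadjusted p below 0.05 there were 3 members (Mat2a, Psph and Shmt1), against 30.3% of all genes. The median log2 change of the members was -0.30, against -0.03 for all genes tested. Among genes whose mean reached 5 FPKM the medians were -0.30 for the 9 members and -0.15 for all. Under TPM, in which each library is divided by its FPKM sum, they were 0.21 and 0.37, and without mutator replicates 1 to 3 they were 0.07 and 0.02. The mutator samples lay entirely below the wild-type samples for 3 members, Mat2a, Psph and Shmt1, and entirely above for Aldh1l2. Among all genes, 16.1% lay entirely below and 12.4% entirely above, 28.5% together. The Mat2a call did not hold without any 1 of the wild-type replicates, without the mutator 1 and 2 pair or without mutator replicate 4 or 5, when the adjusted p was 0.0716 to 0.146 at log2 changes of -1.37 to -1.17 (limma). Under TPM Mat2a stood at -0.82, or -1.19 from the all-gene median, with a limma adjusted p of 0.265. The split of all calls was 542 lower and 353 higher as reported, 21 lower and 1092 higher under TPM, and 1028 lower and 1067 higher with median-of-ratios size factors.

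Feeder and primitive endoderm marker sums were higher in every mutator library than in any wild-type library. The mean log2(FPKM + 1) of the feeder markers overlapped, at 2.45 to 2.76 in wild-type and 2.70 to 4.03 in mutator libraries. The part of these markers in the differences was not tested, nor was that of the Y-linked difference. Without mutator replicates 1 to 3 the log2 change of Mat2a was -1.52 (limma adjusted p = 0.0616). Mutator replicates 4 and 5, which remained, had feeder sums of 262 and 441 FPKM, against 213 to 248 FPKM in wild type. By the mean log2(FPKM + 1) of the feeder markers they stood at 2.70 and 2.91. In replicate 5 the feeder markers went both ways. Sparc was at 149 FPKM, against 30.5 to 39.4 FPKM in wild type, and Acta2 at 13.5 FPKM, against 17.0 to 21.8 FPKM. Endoderm sums of replicates 4 and 5 were 32.5 and 250.1 FPKM, against 23.3 to 26.6 FPKM in wild type. Replicate 3, left out here, had the highest Mat2a value of the mutator libraries (53.7 FPKM). In bulk RNA, fewer cells of a type and less RNA per cell cannot be told apart.

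Position in the order of the members does not depend on how libraries are scaled, since scaling multiplies all genes of a library by the same factor. FPKM are also corrected for length, so different genes of a library can be set side by side. In the wild-type libraries Mat2a ranked 2, 1 and 1 of the 10 transcripts. In mutator replicates 1 to 5 it ranked 5, 5, 2, 5 and 6. Shmt2 ranked 9 and Aldh1l2 ranked 10 in every library. The 4 highest wild-type means, Mat2a at 75.2 ± 4.13, Shmt1 at 73.9 ± 17.9, Mthfd1 at 63.0 ± 10.6 and Psat1 at 55.8 ± 12.0 FPKM (SD, n = 3), each differed from the next by less than the larger SD of the pair, as did Psph at 25.4 ± 2.71, Phgdh at 21.1 ± 11.3 and Mthfd1l at 19.1 ± 1.93 FPKM.

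**Figure D2:**
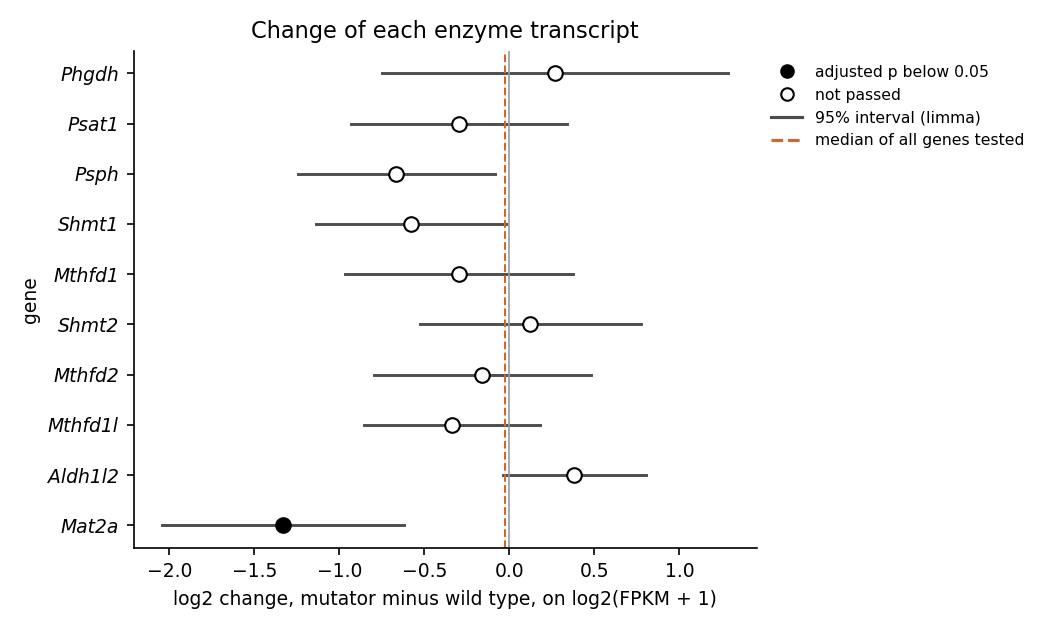
Log2 change of each enzyme transcript, mutator minus wild type, on log2(FPKM + 1), with its 95% interval from limma; the dashed line is the median of all genes tested (-0.03). Mat2a, the filled point at -1.33, is the 1 gene with an adjusted p below 0.05.

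Phgdh, for phosphoglycerate dehydrogenase, the first enzyme of serine synthesis (chromosome 3, 98313170 to 98339990), varied widely within both groups. It measured 33.6, 18.1 and 11.5 FPKM in wild type, and 15.7, 16.7, 15.9, 24.1 and 47.1 FPKM in mutator replicates 1 to 5. The groups overlapped: 4 of the 5 mutator libraries lay within the wild-type range, and replicate 5 stood above it. The log2 change was 0.27 (95% interval -0.75 to 1.29; limma adjusted p = 0.711), and it was -0.06 without mutator replicate 5, -0.08 without wild-type replicate 3 and 0.75 under TPM.

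Psat1, the aminotransferase of the second step (chromosome 19, 15904678 to 15947337), measured 69.2, 52.3 and 46.0 FPKM in wild-type libraries. In mutator replicates 1 to 5 it measured 33.3, 32.9, 36.5, 49.9 and 65.9 FPKM, the first 3 of them below every wild-type value. The interval of its log2 change of -0.29 reached from -0.93 to 0.34 (limma adjusted p = 0.494), and under TPM the change was 0.21. Psph, the phosphatase that releases serine (chromosome 5, 129765558 to 129787449), did not overlap between groups, all mutator libraries being lower. It measured 23.2, 24.5 and 28.4 FPKM in wild type, and 12.5, 12.0, 11.2, 19.96 and 21.3 FPKM in mutator replicates 1 to 5. The log2 change of -0.66 (95% interval -1.24 to -0.09) did not pass (limma adjusted p = 0.123) and was -0.17 under TPM. Psph shares 452 bases with Cct6a on the opposite strand (log2 change -0.92, limma adjusted p = 0.0559), a chaperonin gene with a mean of 139 FPKM. The strand setting is not given, so reads in the overlap cannot be told apart.

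Shmt1, the cytosolic serine hydroxymethyltransferase (chromosome 11, 60788104 to 60811718), measured 94.5, 65.0 and 62.3 FPKM in wild type. Values in mutator replicates 1 to 5 were 33.8, 37.7, 57.9, 47.7 and 54.8 FPKM, all below the lowest wild-type value. The log2 change of -0.58 (95% interval -1.14 to -0.02) did not pass (limma adjusted p = 0.152) and was -0.07 under TPM. Mthfd1 encodes the trifunctional cytosolic enzyme that interconverts methylene-, methenyl- and formyl-tetrahydrofolate (chromosome 12, 76255298 to 76319803). It measured 65.5, 51.4 and 72.2 FPKM in wild type, and 33.8, 34.2, 44.5, 54.4 and 79.1 FPKM in mutator replicates 1 to 5. Mutator replicates 1 to 3 lay below and replicate 5 above every wild-type library. The log2 change was -0.30 (95% interval -0.97 to 0.37; limma adjusted p = 0.514) and was 0.21 under TPM.

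Among the mitochondrial enzymes, Shmt2, which passes the carbon of serine to folate there (chromosome 10, 127517123 to 127522444), was the serine hydroxymethyltransferase with the lower transcript level in every library. It measured 11.6, 7.70 and 6.85 FPKM in wild type, and 5.56, 5.95, 8.78, 11.1 and 13.4 FPKM in mutator replicates 1 to 5. The groups overlapped, at a log2 change of 0.12 (95% interval -0.53 to 0.78; limma adjusted p = 0.793; 0.58 under TPM). Mthfd2, the dehydrogenase and cyclohydrolase of the mitochondrial cycle and a gene high in dividing and embryonic cells (chromosome 6, 83305691 to 83325908), measured 33.9, 26.8 and 33.8 FPKM in wild type. Mutator replicates 1 to 5 had 28.2, 26.4, 17.2, 32.2 and 40.0 FPKM of Mthfd2. They lay on both sides of the wild-type range, replicate 3 lowest and replicate 5 highest of all libraries (log2 change -0.16; 95% interval -0.80 to 0.48; limma adjusted p = 0.727; 0.33 under TPM).

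Mthfd1l, the ligase that releases formate in mitochondria (chromosome 10, 3973118 to 4167081), measured 20.96, 17.1 and 19.2 FPKM in wild type. The same transcript was at 9.70 and 9.93 FPKM in mutator replicates 1 and 2, and at 16.6, 16.2 and 18.2 FPKM in replicates 3 to 5. Mutator replicates 1 to 4 lay below every wild-type library, replicates 1 and 2 by the most, and replicate 5 within their range (log2 change -0.34; 95% interval -0.85 to 0.18; limma adjusted p = 0.338; 0.15 under TPM). Aldh1l2, which oxidises formyl-tetrahydrofolate in mitochondria (chromosome 10, 83487450 to 83534140), was the least abundant member. It measured 1.62, 1.80 and 1.74 FPKM in wild type, and 2.85, 3.44, 2.21, 3.17 and 1.84 FPKM in mutator replicates 1 to 5. All mutator values were above the wild-type values, replicate 5 by the least, and the log2 change of 0.38 (95% interval -0.04 to 0.80) did not pass (limma adjusted p = 0.2) and was 0.69 under TPM. The gene shares 1056 bases with D10Wsu102e on the opposite strand, which had a mean of 9.86 FPKM.

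**Figure D3:**
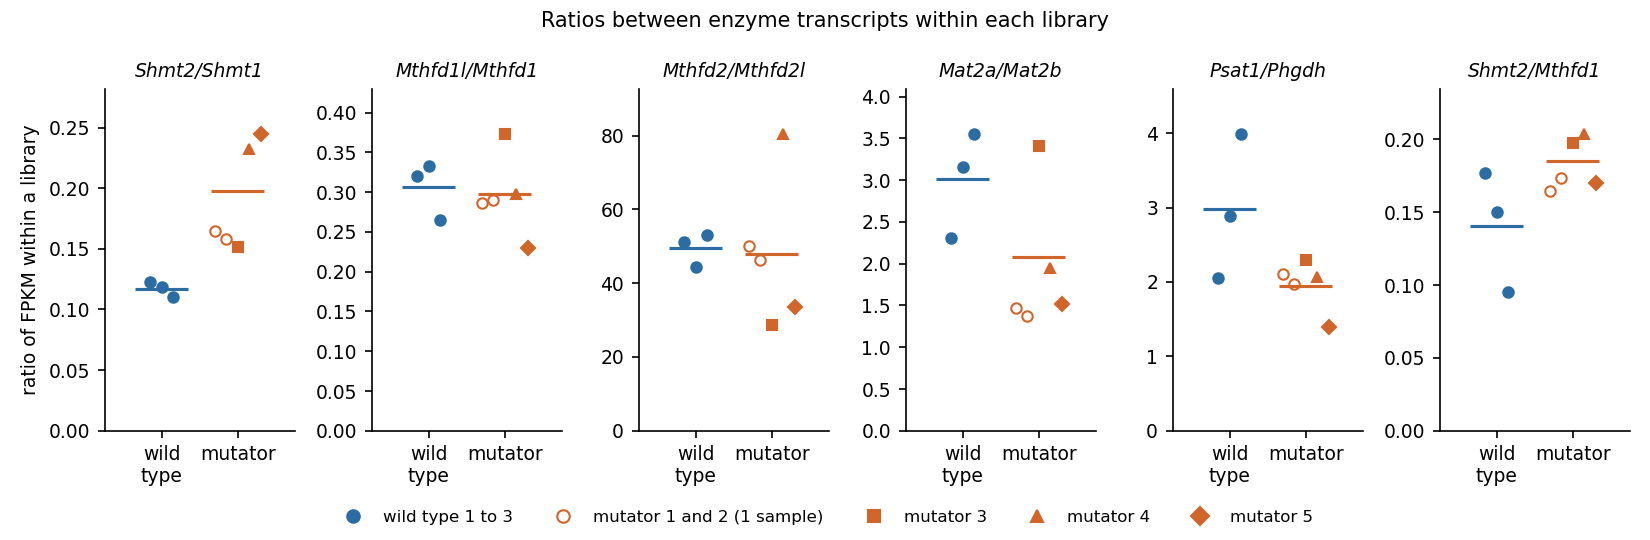
Ratios of FPKM between pairs of enzyme transcripts within each library, with wild-type libraries in blue, mutator libraries in orange and group means as bars; each axis starts at 0. Shmt2/Shmt1 is 0.11 to 0.12 in wild-type and 0.15 to 0.25 in mutator libraries, and the other 5 ratios overlap between the groups.

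Ratios between transcripts of the same library are free of library scaling and are given as a description. The ratio of mitochondrial to cytosolic serine hydroxymethyltransferase transcripts, Shmt2/Shmt1, was 0.123, 0.119 and 0.110 in wild type. In mutator replicates 1 to 5 it was 0.165, 0.158, 0.152, 0.233 and 0.245, so that all mutator libraries stood above all wild-type libraries, 1.69-fold in the means. Neither gene passed by itself (limma adjusted p = 0.793 for Shmt2 and 0.152 for Shmt1). How often ratios of other gene pairs separate the groups was not counted. The ratio of the formate-side enzymes, Mthfd1l/Mthfd1, overlapped, at 0.306 ± 0.0359 (SD, n = 3) in wild-type and 0.298 ± 0.0589 (SD, n = 4) in mutator samples. Shmt2/Mthfd1 and Psat1/Phgdh also overlapped. Mthfd2/Mthfd2l was 44.3 to 53.0 in wild-type and 28.8 to 80.6 in mutator libraries, resting on 0.40 to 1.19 FPKM of Mthfd2l, the second mitochondrial dehydrogenase gene. For SAM synthetase, the ratio of the catalytic to the regulatory subunit, Mat2a/Mat2b, was 2.31, 3.16 and 3.56 in wild type. It was 1.47, 1.37, 3.41, 1.95 and 1.52 in mutator replicates 1 to 5, below wild type in all but replicate 3. Mat2b itself measured 26.0 ± 7.20 and 15.1 ± 2.02 FPKM (log2 change -0.72; limma adjusted p = 0.0698). Mat1a, the liver form, was at 0 to 0.09 FPKM.

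Mettl16, the gene of the methyltransferase whose motif is printed above, was looked at after the Mat2a values were seen. It lies on chromosome 11 (74770830 to 74828525) and measured 25.4, 16.1 and 16.5 FPKM in wild type. The 5 mutator libraries had 8.19, 8.71, 9.22, 9.93 and 11.3 FPKM, all below wild type and closer together than the Mat2a values. Mettl16 fell 1.99-fold in the means, by 0.90 on the log2 scale (standard error 0.20; limma adjusted p = 0.0404), and it was called in 9 of 20 alternative settings, with adjusted p from 0.0134 to 0.442. Without any 1 wild-type replicate, the mutator 1 and 2 pair, or mutator replicate 3, 4 or 5, the limma adjusted p was 0.051 to 0.128. Gene-level FPKM hold no splice forms, so intron retention in Mat2a, which in human cells is known to depend on METTL16, was not analysed here. Mat2a also shares 508 bases with Particl on the opposite strand, which these values cannot tell apart from it.

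**Figure D4:**
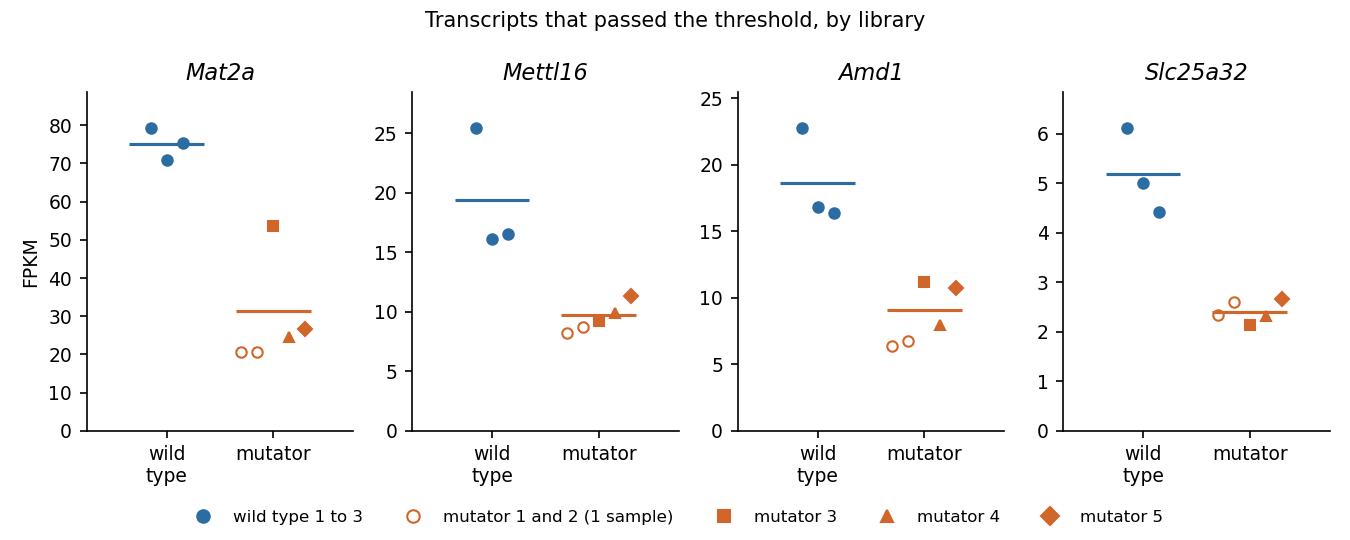
FPKM in each library of Mat2a, of Mettl16 and of 2 other one-carbon genes that passed the threshold, with wild-type libraries in blue, mutator libraries in orange and group means as bars; each axis starts at 0. All mutator libraries lie below all wild-type libraries for the 4 genes, and mutator replicate 3 stands apart for Mat2a at 53.7 FPKM.

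Other genes of serine, folate and methionine metabolism were taken from a list, 62 of which are reported here, and 46 of these reached a mean of 1 FPKM and were tested. Of these 2 fell, 0 rose and 44 did not pass, near the 4.54% lower and 2.95% higher among all genes, with a median log2 change of -0.22 against -0.03. Of the 46, 14 lay entirely below wild type and 2 entirely above, against 16.1% and 12.4% of all genes. Those that fell were Slc25a32, the carrier that brings folate into mitochondria, and Amd1, the decarboxylase that commits SAM to polyamines. Slc25a32 measured 6.11, 5.00 and 4.42 FPKM in wild type, and 2.33, 2.60, 2.13, 2.32 and 2.67 FPKM in mutator replicates 1 to 5 (log2 change -0.86, limma adjusted p = 0.0299). Amd1 was at 22.7, 16.8 and 16.4 FPKM in wild type and at 6.36, 6.77, 11.2, 7.95 and 10.7 FPKM in mutator libraries (log2 change -0.97, limma adjusted p = 0.0412). For both genes, no mutator library reached the lowest wild-type value. Neither call held without any 1 of the wild-type replicates, the mutator 1 and 2 pair or mutator replicate 4, and that of Amd1 did not hold without mutator replicate 5 (limma adjusted p = 0.0534 to 0.141). Under TPM neither passed, at log2 changes of -0.45 for Slc25a32 and -0.49 for Amd1 (limma adjusted p = 0.246 and 0.403).

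**Figure D5:**
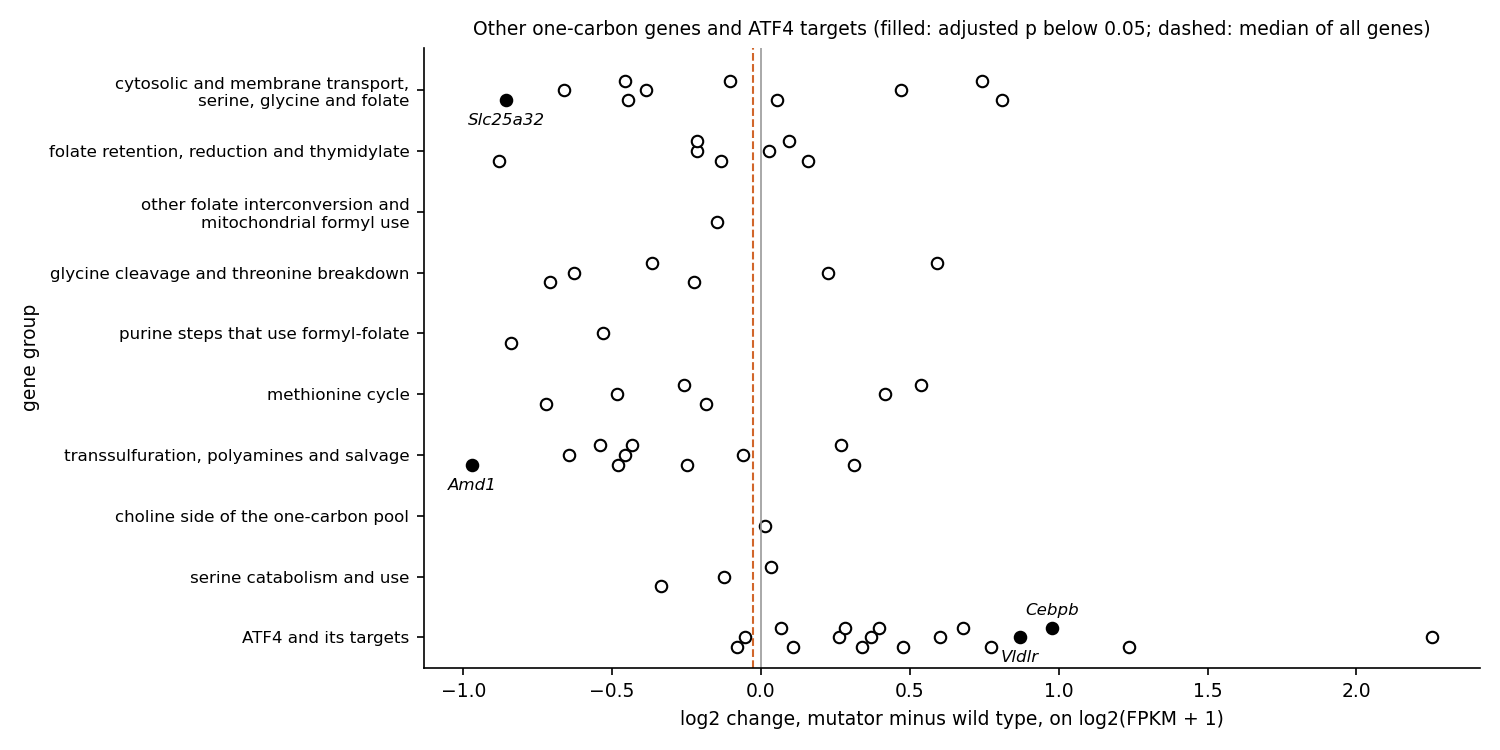
Log2 change, mutator minus wild type, on log2(FPKM + 1), of the 46 other one-carbon genes tested, by group, and of 17 tested genes of the ATF4 list; filled points have an adjusted p below 0.05 and the dashed line is the median of all genes. Amd1 and Slc25a32 are the filled points on the left, at -0.97 and -0.86, and Vldlr and Cebpb those on the right, at 0.87 and 0.98.

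In the group for folate retention, reduction and thymidylate, 0 of the 7 genes reported passed. Tyms, thymidylate synthase, measured 32.0 ± 11.4 and 16.5 ± 3.21 FPKM (log2 change -0.88; limma adjusted p = 0.069), and Qdpr, a dihydropteridine reductase, had a log2 change of 0.16 (limma adjusted p = 0.693). Of 10 tested transport genes 1 fell; the neutral amino acid carriers Slc38a2 and Slc1a5 had log2 changes of -0.66 and 0.47 (limma adjusted p = 0.121 and 0.195). Of 6 genes for glycine cleavage and threonine breakdown 0 passed. Tdh, the threonine dehydrogenase of mouse embryonic stem cells, measured 41.5 ± 7.95 and 32.3 ± 7.67 FPKM, and Gcsh, a carrier protein of glycine cleavage, had a log2 change of -0.63 (limma adjusted p = 0.327 and 0.143). The purine enzymes that use formyl-tetrahydrofolate, Atic and Gart, had log2 changes of -0.84 and -0.53 (limma adjusted p = 0.0506 and 0.196).

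Among 10 tested genes of transsulfuration, polyamines and methionine salvage 1, Amd1, fell. Cth and Mtap had log2 changes of -0.43 and -0.48 (limma adjusted p = 0.572 and 0.128). Of 6 methionine cycle genes 0 passed, Ahcyl1 at 0.54 (limma adjusted p = 0.0738). The single choline-side gene tested, Aldh7a1, stood at 0.02, the sphingolipid genes Sptlc1 and Sptlc2 at -0.33 and 0.03, and Mtfmt, which formylates the mitochondrial initiator tRNA, at -0.15. None of these 4 passed. Aldh1l1, the cytosolic counterpart of Aldh1l2, was below the filter at 0.15 to 1.53 FPKM.

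ATF4 and its known targets outside the members gave 2 higher, 0 lower and 15 genes that did not pass of 17 tested, with a median log2 change of 0.40. Among all genes 2.95% were higher and the median was -0.03, and the list's count of higher genes was 0 to 6 over the alternative settings. Cebpb, a transcription factor gene, rose from 3.14 ± 0.637 to 7.14 ± 1.24 FPKM and Vldlr, a lipoprotein receptor gene, from 0.727 ± 0.113 to 2.22 ± 0.75 FPKM (limma adjusted p = 0.0308 and 0.0472; n = 3 and 4). Atf4 itself measured 107 ± 23.3 and 105 ± 33.4 FPKM, and Asns, for asparagine synthetase, 68.2 ± 9.73 and 87.2 ± 31.9 FPKM, and neither passed. Neither the Cebpb nor the Vldlr call held without any 1 wild-type replicate, the mutator 1 and 2 pair or mutator replicate 4, and that of Vldlr did not hold without mutator replicate 1 or 5 (limma adjusted p = 0.05 to 0.162). Ddit3, for the stress factor CHOP, had the largest log2 change of the list at 2.25 (limma adjusted p = 0.065), a gene singled out after its values were seen. The 7 members of serine synthesis and the mitochondrial folate cycle, known ATF4 targets in other settings, had 0 called in either direction and a median log2 change of -0.16. Among all genes 7.49% were called in either direction, so 0 of 7 is near the background. RefSeq promoter windows (GRCm38.p6; 250 bases before to 50 after a gene's start) were found for 9 members, 10 windows in all, and not for Aldh1l2. The ATF4 response element TGATGNAAN, on either strand, was in 0 of the 10 windows and in 3.95% of 32851 promoters. The E-box CACGTG was in 0 of 10 and in 7.15% of promoters. For as few as 10 windows, 0 is near both shares. Sequence outside the windows was not searched.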

How the data were processed

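Sample titles gave the groups and replicate numbers. The authors deposited FPKM, with a column for each library; STAR and Cufflinks are named in the submitters' processing notes. Their versions, the build, annotation, strandedness and depth are not given in the sources used here. Rows of the 265 symbols found more than once were summed, and 31 missing cells were kept missing. Mutator replicates 1 and 2 were compared at a depth of about 20821850 fragments, implied by 84 genes whose values stood 3:1 or 1:3 between them, over genes with 1 annotated transcript of at least 500 bases; the same depth was used for every pair. Same-numbered libraries were not paired (their deviations from group means correlated at 0.013, -0.012 and 0.051).

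Log2(FPKM + 1) was fitted with limma 3.58.1 in R 4.3.3 (trend, Benjamini-Hochberg, threshold 0.05), and the fit was tested on simulated data. A fold is a ratio of mean FPKM. Low genes' log2 changes are understated by the pseudocount of 1. Positions are those of GENCODE M21 (GRCm38), by gene ID, not the authors'. Python 3.11.15, pandas 2.3.3, numpy 2.4.6 and matplotlib 3.10.9 did the rest. Members, lists and tests were chosen with earlier results of these data known. Named were all members, each called gene of the other lists, up to 2 uncalled genes per group with the highest mean, and members' close relatives with Tdh and Tyms. A gene of the lists is not reported here. Alternatives covered pseudocount, filter, scaling, variance model, counting and pairing of libraries, and leaving libraries out.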

Additional observations from a re-analysis of the deposited data

How the results depend on the processing

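Counts are of genes lower or higher in mutator samples in limma, as reported 1 lower and 0 higher of the members, 2 lower and 0 higher of the other one-carbon genes, 2 higher of the ATF4 list, and 542 lower and 353 higher of all genes. With no filter these were 0, 0 and 0, with 23 lower and 20 higher of all genes. Requiring a mean of 5 FPKM, 511 of all genes were lower and 188 higher. Under TPM 0 members and 0 other one-carbon genes were lower, 2 of the latter and 6 of the ATF4 list were higher, and all genes gave 21 lower and 1092 higher, with the median at 0.37. With median-of-ratios size factors there were 6 lower and 1 higher one-carbon genes, 6 of the ATF4 list, and 1028 lower and 1067 higher genes. With array weights the counts were 7 lower, 3 higher, 6, 1470 and 1282. With all 8 libraries separate they were 6 lower, 2 higher, 6, 1297 and 906. With the replicate block on all 8 libraries 0 members, 0 other one-carbon genes and 0 of the ATF4 list were called, and 1 gene was lower and 0 higher of all; the libraries share a number only, 2 of 6 being closest to their own number. Without mutator replicates 1, 2 and 3 the counts were 0, 0 and 0, and 3 lower and 13 higher. Leaving out 1 library or the pair at a time gave 0 to 1 members lower, 0 to 3 other one-carbon genes lower, 0 to 6 of the ATF4 list higher, and 1 to 524 lower and 1 to 581 higher genes. Each wild-type replicate and the mutator 1 and 2 pair took all listed calls away when left out, as did mutator replicate 4; each such comparison has fewer samples, and the cause was not tested further. Mat2a stayed below 0 at -1.62 to -0.82 and was called in 10 of 20 settings (adjusted p 0.00885 to 0.265).

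Among the members, 15 values changed sign, none of them called. Under TPM Psat1 was 0.21, Mthfd1 0.21, Mthfd2 0.33 and Mthfd1l 0.15. With the replicate block Phgdh was -0.24 and Shmt2 -0.32, and with array weights Mthfd2 was 0.0. Leaving out 1 library at a time, Phgdh ranged from -0.08 to 0.66 and Mthfd2 from -0.33 to 0.06. Without wild-type replicate 3 Phgdh was -0.08 and Shmt2 -0.01, without mutator replicate 5 they were -0.06 and -0.04, and without mutator replicate 3 Mthfd2 was 0.06. Without mutator replicates 1, 2 and 3 Psat1, Mthfd1 and Mthfd2 were 0.06, 0.07 and 0.19. Depth per library is unknown, so no counting interval is given.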

Other observations

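Mutator replicate 3 was the lowest of all 8 libraries for 7 of the 17 tested genes of the ATF4 list, and lay above every wild-type library for 4 others. Wild-type replicate 3 was the lowest for 6 of the 17. Mutator replicate 3 was lowest for 2 of the 10 members and for 9 of the 46 other one-carbon genes. Mutator replicates 1 and 2, counted as 1 sample in the test, were lowest for 4 and 2 of the members. For the other one-carbon genes they were lowest for 11 and 10. The share over all genes was not counted. The genes named here were singled out after their values were seen, and the counts were not tested. Cth, for the transsulfuration enzyme cystathionine gamma-lyase, measured 17.4 FPKM in mutator replicate 3 and 49.4 to 94.2 FPKM in the other libraries. Asns measured 40.5 FPKM against 58.3 to 111 FPKM, Nupr1, a stress-induced chromatin gene, 6.42 FPKM against 12.6 to 31.8 FPKM, and Mthfd2 17.2 FPKM against 26.4 to 40.0 FPKM. Cebpb, Ddit4 and Pycr1 were at 6.54, 4.89 and 4.87 FPKM in this replicate, above the wild-type ranges of 2.41 to 3.59, 2.25 to 4.10 and 2.12 to 4.07 FPKM. Ddit3 was at 4.12 FPKM in this replicate and at 19.8 to 36.7 FPKM in the other mutator libraries, against 2.07 to 4.29 FPKM in wild type.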
